A study of Rattus norvegicus with 19 samples.

Results

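The genes described here encode proteins of the myelin sheath or of the oligodendrocyte membranes that form it. They are Mbp, Mobp, Cnp, Mag, Mog, Cldn11, Mal and Opalin, chosen by symbol, and they are 8 of the 15597 genes of the deposited table. Of the 8 genes, 6 reached 1 FPKM (fragments per kilobase of transcript, scaled to library size) in at least 4 of the 19 libraries, which 11887 genes of the table did, and were tested. Mal and Opalin did not reach 1 FPKM in any library and were not tested.

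The libraries came from ventral spinal cord cells of wild-type Sprague-Dawley rat embryos, taken into primary culture at embryonic day 14. The 4 groups were cultures given long-chain polyphosphate at 100 µM for 90 min (polyP, n = 5), cultures given for 90 min medium conditioned by astrocytes of SOD1G93A transgenic mice (hSOD1-G93A ACM, n = 5), cultures given for 90 min medium conditioned by mouse astrocytes that express wild-type human SOD1 (hSOD1-WT ACM, n = 4) and untreated cultures (control, n = 5). Polyphosphate is a chain of linked phosphate units, and G93A is a change in superoxide dismutase 1 that causes familial amyotrophic lateral sclerosis. The control cultures received no conditioned medium, so the media differ from them also in having been on mouse astrocytes, and all cultures hold a mixture of neurons and glia grown with horse serum and chick leg extract. The labels call the samples of a condition independent cultures, and p-values measure the spread between them. The age of the cultures is given as 7 days in vitro in one field, as 4 days in the treatment protocol and as up to 9 days in the growth protocol, and no label gives a batch or a date.

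Oligodendrocytes wrap axons of the central nervous system with membrane, press its cytoplasmic faces together into compact myelin and leave channels of cytoplasm and an inner collar facing the axon. They arise from precursor cells that express Pdgfra, the receptor for platelet-derived growth factor, under the transcription factors Olig2 and Sox10, and the factor Myrf switches on the myelin genes as they mature. In the ventral spinal cord their precursors arise from the same progenitor domain as motor neurons, after them. Schwann cells make the myelin of peripheral nerves and also express Mbp, Mag, Cnp and Mal.

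The levels of Mbp, Mag, Cldn11 and Cnp followed the replicate numbers of the libraries in all 4 groups and differed far more between them than between treatments. In this text the lower-numbered libraries are replicates 1 to 3 of the polyP, hSOD1-G93A ACM and control groups and replicates 1 and 2 of the hSOD1-WT ACM group (n = 11), and the higher-numbered ones are the last 2 of each group (n = 8). This division was chosen with earlier results of these data known, so the values are a description and no test is given. Of the 8 genes, these 4 had all lower-numbered libraries above all higher-numbered ones, as had 655 of the 11887 genes tested (5.51%). Mog had the reverse order, as had 948 genes (7.98%), and Mobp, Opalin and Mal overlapped. Mag passed the filter on low values through the lower-numbered libraries alone, so it could only stand higher there.

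Mbp (identifier 24547) encodes myelin basic protein, which holds the cytoplasmic faces of compact myelin together, and is the only one of the 8 genes with several transcripts, 6, in the table. It stood at 216, 212, 328, 9.61 and 7.94 FPKM in polyP libraries 1 to 5 and at 169, 177, 332, 8.36 and 6.79 FPKM in hSOD1-G93A ACM libraries 1 to 5. It stood at 292, 335, 7.04 and 6.54 FPKM in hSOD1-WT ACM libraries 1 to 4 and at 171, 372, 348, 7.82 and 9.62 FPKM in control libraries 1 to 5. The last 2 libraries of every group were low and the others high, and the ranges of all treatments overlapped in the high class. In the low class the hSOD1-WT ACM libraries overlapped those of hSOD1-G93A ACM and lay below both polyP and both control libraries. Replicate 3 was among the low libraries in the hSOD1-WT ACM group and among the high ones in the others. The mean was 268 ± 79.5 FPKM in lower-numbered and 7.97 ± 1.19 FPKM in higher-numbered libraries (SD, n = 11 and 8), a ratio of 33.7, which ran from 28.7 in the polyP group to 46.2 in the hSOD1-WT ACM group.

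Mag (29409) encodes the myelin-associated glycoprotein, an adhesion molecule of the inner myelin membrane that faces the axon. It stood at 12.7, 11.8, 18.8, 0.18 and 0.32 FPKM in polyP libraries and at 11.0, 10.4, 23.2, 0.24 and 0.18 FPKM in hSOD1-G93A ACM libraries. It stood at 20.5, 25.1, 0.28 and 0.37 FPKM in hSOD1-WT ACM libraries and at 11.5, 30.6, 22.6, 0.27 and 0.44 FPKM in control libraries. No higher-numbered library reached 1 FPKM, and no lower-numbered library lay below 10 FPKM. In the high class the polyP libraries lay below the hSOD1-WT ACM libraries, and in the low class the hSOD1-G93A ACM libraries lay below the hSOD1-WT ACM and the control libraries, while the other pairs of treatments overlapped. Its ratio of means, 63.2, was the highest of the 8 genes and ran from 57.7 to 70.7 over the groups. At levels this low the ratio rests on few fragments, whose number is not known because the table holds no counts.

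Cldn11 (84588) encodes claudin 11, which forms the tight junctions between the layers of central myelin. It stood at 11.4, 11.3, 14.5, 0.98 and 1.37 FPKM in polyP libraries and at 9.40, 9.35, 18.2, 1.28 and 1.14 FPKM in hSOD1-G93A ACM libraries. It stood at 14.2, 19.9, 0.99 and 1.23 FPKM in hSOD1-WT ACM libraries and at 10.7, 15.1, 15.7, 1.37 and 0.88 FPKM in control libraries. Again the last 2 libraries of each group were low, and the mean was 13.6 FPKM in lower-numbered and 1.16 FPKM in higher-numbered libraries, a ratio of 11.8 (10.2 to 15.3 over the groups).

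Cnp (25275) encodes the phosphodiesterase CNPase, which keeps cytoplasmic channels open in myelin and appears in the lineage before compact myelin does. It stood at 143, 148, 162, 39.4 and 36.3 FPKM in polyP libraries and at 104, 113, 133, 24.5 and 23.3 FPKM in hSOD1-G93A ACM libraries. It stood at 123, 154, 26.5 and 21.8 FPKM in hSOD1-WT ACM libraries and at 90.5, 128, 156, 21.7 and 27.8 FPKM in control libraries. The last 2 libraries of each group were lower here too, with the smallest ratio of means of these 4 genes, 4.78 (3.99 to 5.74 over the groups). Within the higher-numbered class both polyP libraries lay above all 6 others.

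**Figure D1:**
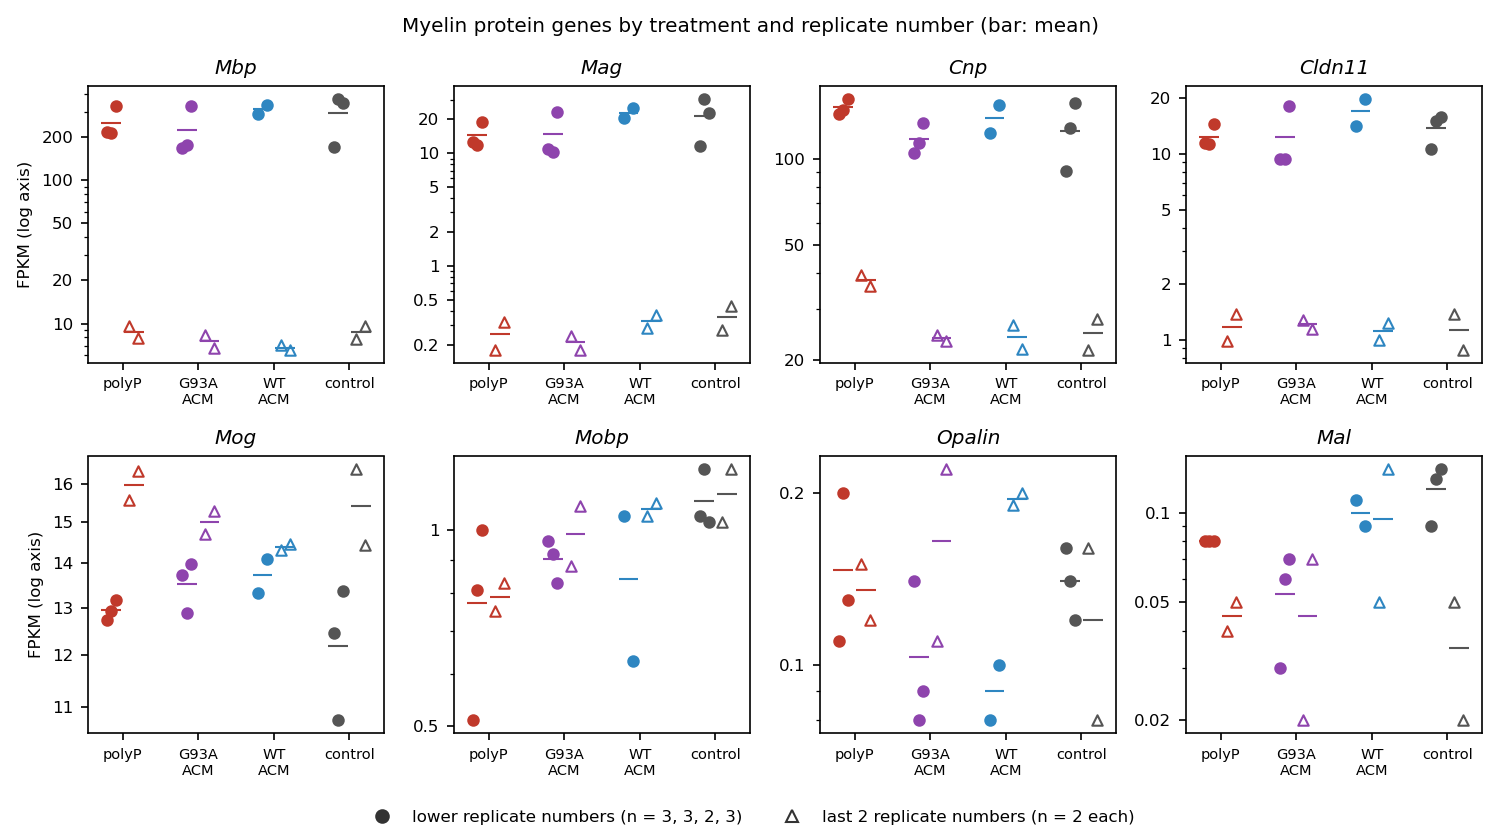
FPKM of the 8 genes on log axes, 1 point per library, by treatment; filled circles are lower-numbered libraries, open triangles the last 2 replicate numbers, and bars their means. Mbp, Mag, Cldn11 and Cnp separate the 2 classes of replicate number in each treatment, Mog is slightly higher in the triangles, and Mobp, Opalin and Mal do not separate them.

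Mog (24558) encodes the myelin oligodendrocyte glycoprotein of the outermost myelin surface, which oligodendrocytes make late in maturation. It stood at 12.7, 12.9, 13.2, 15.6 and 16.4 FPKM in polyP libraries and at 13.7, 12.9, 14.0, 14.7 and 15.3 FPKM in hSOD1-G93A ACM libraries. It stood at 13.3, 14.1, 14.3 and 14.5 FPKM in hSOD1-WT ACM libraries and at 12.5, 10.8, 13.4, 16.4 and 14.5 FPKM in control libraries. All higher-numbered libraries lay above all lower-numbered ones, by a narrow margin, with means of 13.0 FPKM in lower-numbered and 15.2 FPKM in higher-numbered libraries (ratio 0.858). In the rat annotation at hand, of another assembly than the one the reads were aligned to, Mog overlaps the protein-coding gene Zfp57, so reads of these genes may have been shared. Zfp57, looked at for that position after its values were seen, lay between 21.0 and 30.1 FPKM, and the ratio of Mog to Zfp57 lay between 0.486 and 0.598 in all 19 libraries. The ratio of Mog to Mbp ran from 0.0289 to 0.0813 in lower-numbered and from 1.50 to 2.25 in higher-numbered libraries. The reads are described as strand-specific, but the strand setting of the counting is not given, so the values of Mog are uncertain, and the part of Zfp57 in them was not tested.

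Mobp (25037) encodes the myelin-associated oligodendrocyte basic protein of compact myelin. It stood at 0.51, 0.81, 1.00, 0.75 and 0.83 FPKM in polyP libraries and at 0.96, 0.92, 0.83, 0.88 and 1.09 FPKM in hSOD1-G93A ACM libraries. It stood at 1.05, 0.63, 1.05 and 1.10 FPKM in hSOD1-WT ACM libraries and at 1.05, 1.24, 1.03, 1.03 and 1.24 FPKM in control libraries. The polyP libraries all lay below the control libraries, while the replicate numbers did not separate it, with means of 0.912 FPKM in lower-numbered and 0.996 FPKM in higher-numbered libraries. It was at or above 1 FPKM in 1 of 5 polyP, 1 of 5 hSOD1-G93A ACM, 3 of 4 hSOD1-WT ACM and 5 of 5 control libraries, so the control libraries alone would have taken it past the filter.

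Opalin (361757), which encodes a glycoprotein of oligodendrocyte membranes, lay between 0.08 and 0.22 FPKM, and Mal (25263), which encodes a lipid raft protein of compact myelin and of apical epithelial membranes, lay between 0.02 and 0.14 FPKM. Neither gene was at 0 in any library, and both overlapped between replicate numbers and, over all libraries of a group, between treatments. In the higher-numbered libraries Mag lay between 0.18 and 0.44 FPKM, near these 2 genes.

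The order of levels among the 8 genes differed between the replicate numbers, on the FPKM scale, which accounts for transcript length. In all 11 lower-numbered libraries Mbp stood above Cnp, Cnp above Mag and Mag above Cldn11. Cldn11 stood above Mog in 6 of the 11, so these neighbours did not differ beyond their spread. In all 8 higher-numbered libraries Cnp stood above Mog, Mog above Mbp and Mbp above Cldn11, and Mobp stood above Mag. There Cldn11 and Mobp did not differ beyond their spread, with Cldn11 above in 6 of 8.

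Within the lower-numbered class Mbp left a gap between 5 libraries (polyP 1 and 2, hSOD1-G93A ACM 1 and 2, control 1), at 169 to 216 FPKM, and the other 6, at 292 to 372 FPKM. Mag lay between 10.4 and 12.7 FPKM in these 5 and between 18.8 and 30.6 FPKM in the 6. Cldn11 lay between 9.35 and 11.4 FPKM in the 5 and between 14.2 and 19.9 FPKM in the 6, while Cnp overlapped, at 90.5 to 148 FPKM in the 5 and 123 to 162 FPKM in the 6. Mbp itself set this division, so it is given without a test. Of the 5 libraries 2 are of the polyP, 2 of the hSOD1-G93A ACM, 0 of the hSOD1-WT ACM and 1 of the control group, so the division is unevenly spread over the treatments.

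The 4 genes were not scaled by a common factor. The ratio of Cnp to Mbp lay between 0.343 and 0.695 in lower-numbered and between 2.77 and 4.57 in higher-numbered libraries. The ratio of Mag to Cldn11 lay between 1.05 and 2.03 in lower-numbered and between 0.158 and 0.500 in higher-numbered libraries. Cldn11 over Mbp ran from 0.0407 to 0.0626 in lower-numbered and from 0.0915 to 0.188 in higher-numbered libraries. These 3 ratios kept the replicate numbers apart without overlap, whereas Mag over Mbp touched, at 0.0555 to 0.0824 in lower-numbered and 0.0187 to 0.0566 in higher-numbered libraries. In bulk RNA, fewer cells of a type and less RNA per cell cannot be told apart.

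**Figure D2:**
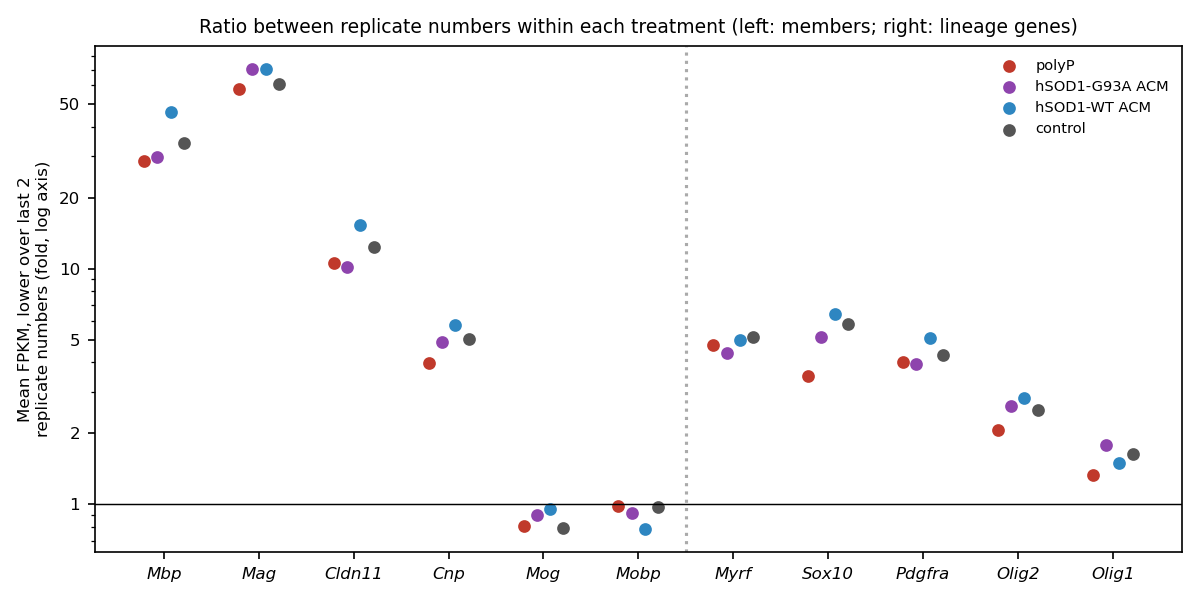
Ratio of mean FPKM in lower-numbered over higher-numbered libraries, computed within each treatment, on a log axis; each point is 1 treatment, the line marks a ratio of 1, and the genes right of the dotted line are of the oligodendrocyte lineage. The order Mag, Mbp, Cldn11, Cnp holds in each of the 4 treatments, and Mog and Mobp lie below 1.

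The promoter windows of the genes that moved together, and of Mobp, which did not, are shown because the binding letters of lineage factors can be looked up in them. Each window runs from 250 bases before to 50 bases after an annotated transcript start, from RefSeq on the assembly GRCr8, written 5′ to 3′ on the strand of the gene. The table held windows for 7 of the 8 genes, Mog apart, and for Mbp the first of 2 annotated starts is shown. Capitals mark CTGGNAC, the pattern used here for MYRF with any base at N, and ACAAAG, a core bound by SOX proteins. Both were sought on either strand (reverse complements GTNCCAG and CTTTGT). No matches of the motifs overlapped. The windows are chr18:78130402-78130701 (Mbp, plus strand), chr1:95290995-95291294 (Mag, minus strand), chr10:86011254-86011553 (Cnp, plus strand), chr2:114149490-114149789 (Cldn11, minus strand) and chr8:128746982-128747281 (Mobp, plus strand).
Mbp: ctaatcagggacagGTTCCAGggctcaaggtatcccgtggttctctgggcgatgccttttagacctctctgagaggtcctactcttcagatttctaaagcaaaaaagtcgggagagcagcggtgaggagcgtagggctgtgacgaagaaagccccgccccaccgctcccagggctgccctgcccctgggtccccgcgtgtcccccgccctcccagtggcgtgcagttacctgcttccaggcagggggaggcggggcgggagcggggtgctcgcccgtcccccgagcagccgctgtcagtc
Mag: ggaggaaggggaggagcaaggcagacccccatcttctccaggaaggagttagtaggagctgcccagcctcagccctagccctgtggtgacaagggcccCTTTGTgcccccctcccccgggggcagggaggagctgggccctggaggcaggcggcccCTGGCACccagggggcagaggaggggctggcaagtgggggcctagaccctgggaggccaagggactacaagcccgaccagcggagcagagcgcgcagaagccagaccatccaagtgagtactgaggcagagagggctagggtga
Cnp: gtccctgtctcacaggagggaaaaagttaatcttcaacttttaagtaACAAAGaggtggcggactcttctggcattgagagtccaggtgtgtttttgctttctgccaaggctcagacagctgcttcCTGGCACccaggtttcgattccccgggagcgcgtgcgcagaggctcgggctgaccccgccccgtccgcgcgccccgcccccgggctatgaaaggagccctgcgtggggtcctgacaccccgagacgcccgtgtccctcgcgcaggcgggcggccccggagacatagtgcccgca
Cldn11: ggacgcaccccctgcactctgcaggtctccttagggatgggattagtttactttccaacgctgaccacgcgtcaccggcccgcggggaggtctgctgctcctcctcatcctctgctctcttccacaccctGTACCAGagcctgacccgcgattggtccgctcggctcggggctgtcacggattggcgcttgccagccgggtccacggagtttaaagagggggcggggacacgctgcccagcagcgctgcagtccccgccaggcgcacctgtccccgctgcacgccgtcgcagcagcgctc
Mobp: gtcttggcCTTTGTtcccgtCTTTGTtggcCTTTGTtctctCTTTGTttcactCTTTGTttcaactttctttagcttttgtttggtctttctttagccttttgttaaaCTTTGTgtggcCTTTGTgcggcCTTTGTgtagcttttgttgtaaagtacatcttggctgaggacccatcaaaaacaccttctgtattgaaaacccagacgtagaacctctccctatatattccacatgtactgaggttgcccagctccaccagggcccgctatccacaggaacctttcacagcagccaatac

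CTGGNAC was found once in each of the windows shown for Mbp, Mag, Cnp and Cldn11, starting 236, 94, 124 and 120 bases before the start. It was not found in the window of the second start of Mbp or in that of Mobp. The base at N was A in the match of Mbp, C in those of Mag and Cnp and T in that of Cldn11. The windows of Mal and Opalin, the genes near the floor in these cultures, also hold CTGGNAC, as do 18.2% of all 33469 windows of the table. ACAAAG was found in the windows of Mag and Cnp, of Opalin and of the second start of Mbp, and 18.8% of all windows hold it. The Mobp window holds 8 matches of ACAAAG, all on the opposite strand, a number reached in 3 windows of the table (0.00896%). A match is a run of letters and not a binding site.

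Other genes of the myelin and oligodendrocyte programme, from lists written with earlier results of these data known, divided in the same way. Of 25 tested genes of further myelin and oligodendrocyte proteins 12 had all lower-numbered libraries above all higher-numbered ones and 0 the reverse. Over all genes tested these shares were 5.51% and 7.98%. Bcas1, a marker of oligodendrocytes that are starting to myelinate, averaged 99.8 FPKM in lower-numbered and 16.2 FPKM in higher-numbered libraries (n = 11 and 8). Enpp6, an enzyme of newly formed oligodendrocytes, averaged 5.21 FPKM in lower-numbered and 0.265 FPKM in higher-numbered libraries. Like Mag it passed the filter on low values through the lower-numbered libraries alone, so its direction was fixed, and the same holds for 37 of the 655 genes in all. Sirt2, Gpm6b and Cd9, the most abundant of the list, had ratios of lower- over higher-numbered means of 2.10, 1.47 and 1.76. Klk6, Ermn, Hapln2 and Ninj2, all below 1 FPKM, were at 0 in some libraries. The median log2 difference of this list was 0.55, against -0.03 over all genes tested.

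Among 11 tested genes of myelin lipid synthesis 6 had all lower-numbered libraries higher and 0 the reverse, beside 5.51% and 7.98% of all genes tested. Ugt8, which makes galactosylceramide, averaged 20.7 FPKM in lower-numbered and 4.85 FPKM in higher-numbered libraries. Fa2h, which hydroxylates its fatty acids, averaged 2.89 FPKM in lower-numbered and 0.274 FPKM in higher-numbered libraries, and Gal3st1, which makes sulfatide from it, 6.54 FPKM in lower-numbered and 0.961 FPKM in higher-numbered ones. Fa2h too passed the filter through the lower-numbered libraries alone. The ratio was smaller for Scd2, a fatty acid desaturase (1.55).

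Of 9 tested transcription factors of the lineage, 6 had all lower-numbered libraries higher and 0 the reverse, beside 5.51% and 7.98% of all genes tested. Myrf averaged 17.3 ± 3.02 FPKM in lower-numbered and 3.60 ± 0.165 FPKM in higher-numbered libraries, a ratio of 4.80. Sox10 averaged 49.4 ± 14.8 FPKM in lower-numbered and 10.1 ± 3.65 FPKM in higher-numbered libraries, and Olig2 33.5 FPKM in lower-numbered and 13.7 FPKM in higher-numbered ones. Olig1 overlapped, at 112 ± 28.9 FPKM in lower-numbered and 71.8 ± 26.8 FPKM in higher-numbered libraries. Of 9 genes of oligodendrocyte precursors 7 were higher in all lower-numbered libraries, beside the same 5.51% of all genes tested. Of the 7 genes 1, Neu4, passed the filter through these libraries alone. Pdgfra was among the 7, at 23.6 FPKM in lower-numbered and 5.48 FPKM in higher-numbered libraries. Gpr17, a receptor of committed precursors, averaged 51.8 FPKM in lower-numbered and 5.32 FPKM in higher-numbered libraries. Ratios were thus 4.30 for Pdgfra and 2.45 for Olig2, against 33.7 for Mbp.

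Of 14 genes linked to the restraint of myelination 2 had all lower-numbered libraries above and 0 the reverse, beside 5.51% and 7.98% of all genes tested. The 2 were Gpr17 and Sox6, both of which are also on the precursor list. The median of the 14 genes was -0.0012 on the log2 scale. Id2 averaged 62.4 FPKM in lower-numbered and 61.5 FPKM in higher-numbered libraries, and Lingo1 56.5 FPKM in lower-numbered and 58.0 FPKM in higher-numbered ones.

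Markers of other cell types moved with the replicate numbers as well. All 17 genes of microglia and macrophages were tested, 10 had all lower-numbered libraries above all higher-numbered ones and 0 the reverse. Over all genes tested these shares were 5.51% and 7.98%. The summed level of the 17 genes ran from 162 to 1007 FPKM in lower-numbered and from 115 to 143 FPKM in higher-numbered libraries, with no marker at 0 in all libraries. C1qa, a complement component, averaged 33.4 ± 21.7 FPKM in lower-numbered and 5.76 ± 1.07 FPKM in higher-numbered libraries. Of 11 astrocyte genes 3 were higher in all lower-numbered libraries, and the sum ran from 530 to 738 FPKM in lower-numbered and from 453 to 534 FPKM in higher-numbered libraries. Of 10 neuronal, 9 fibroblast and 4 endothelial genes 0 separated the replicate numbers in either direction. The neuronal sum ran from 1075 to 1796 FPKM in lower-numbered and from 1561 to 1965 FPKM in higher-numbered libraries. The part of these cells in the levels of the myelin genes was not tested.

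**Figure D3:**
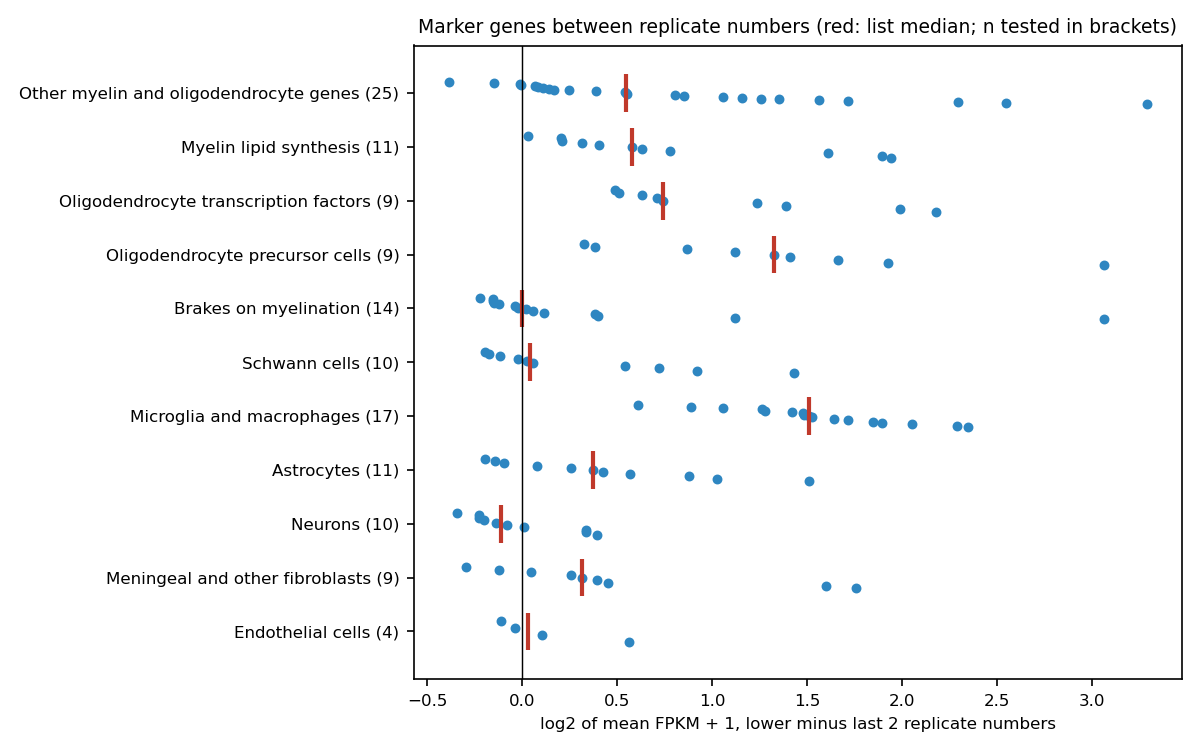
Difference between the mean level in lower-numbered and in higher-numbered libraries, as log2 of mean FPKM + 1, for each tested gene of 11 lists; 1 point per gene, red bar at the list median. The lists of oligodendrocyte genes and of microglia lie mostly right of 0, and the neuronal list lies around it.

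Schwann cells express several of the same myelin genes, so their markers were set beside them. Of 10 tested Schwann cell genes 1, Pmp22, had all lower-numbered libraries above, beside 5.51% of all genes tested. It averaged 100.5 FPKM in lower-numbered and 52.6 FPKM in higher-numbered libraries. Pmp22 encodes a protein of compact peripheral myelin that other cells also make. The summed level of the list ran from 124 to 231 FPKM in lower-numbered and from 101 to 122 FPKM in higher-numbered libraries, and Ncmap was at 0 in all lower-numbered libraries.

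The genes nearest in profile were sought among 11555 genes over the 19 libraries, by the root mean square difference of log2(FPKM + 1) after centring. Nearest to the mean profile of the 6 tested genes were Dusp15 (0.14), Enpp6 (0.15), Myrf (0.16), Apod (0.18) and Gal3st1 (0.19). Dusp15, a phosphatase, averaged 24.0 FPKM in lower-numbered and 4.59 FPKM in higher-numbered libraries. Apod, the lipid carrier apolipoprotein D, averaged 6.96 FPKM in lower-numbered and 0.934 FPKM in higher-numbered libraries. Among the 3 genes nearest to Mbp alone were Pnlip (0.77) and Gpr17 (0.91). Pnlip, annotated as pancreatic lipase, averaged 22.7 FPKM in lower-numbered and 1.31 FPKM in higher-numbered libraries.

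The first treatment comparison set cultures given polyP against untreated ones. Mobp fell, and none of the other 5 tested genes passed the test with the group as the only term (limma on log2(FPKM + 1), Benjamini-Hochberg adjustment over 11887 genes, called at an adjusted p under 0.05). This is 1 of 6 genes, beside 31.8% of all genes tested. Over all genes 2736 were called higher and 1043 lower on the deposited scale, and 1404 and 1667 with summed FPKM made equal, which moved the median log2 fold change of all genes to -0.06 from 0.04. Mobp averaged 0.78 ± 0.177 FPKM in polyP and 1.12 ± 0.112 FPKM in control libraries (SD, n = 5 each), a log2 fold change of -0.26 (SE 0.09, limma adjusted p = 0.0412). All polyP libraries lay below all control libraries, an order in one direction or the other that 18.9% of all genes tested had. The call was lost (limma adjusted p from 0.0541 to 0.12) when control 2, 4 or 5 or polyP 1, 2, 4 or 5 was left out, and with a pseudocount of 0.1 in place of 1 the log2 fold change was -0.49.

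Where replicate numbers were left out, the intervals of Mbp and Cnp were wide. With the group as the only term, the 95% interval of the log2 fold change of Mbp ran from -3.44 to 3.22 around -0.11, and that of Cnp from -1.11 to 1.96 around 0.42 (limma adjusted p = 0.966 and 0.686). With the class of replicate number added as a term, an alternative that earlier results prompted, the interval of Mbp ran from -0.59 to 0.38. In that fit 2 of the 6 genes were called, beside 52.1% of all genes tested. Cnp rose, with a log2 fold change of 0.42 (SE 0.13, limma adjusted p = 0.0108), and Mobp fell as before (limma adjusted p = 0.0189, lost at 0.0623 without polyP 1).

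Cnp was also compared within each class of replicate number. In the higher-numbered libraries Cnp stood at 39.4 and 36.3 FPKM in polyP and at 21.7 and 27.8 FPKM in control cultures, without overlap, and a fit on those libraries alone gave a log2 fold change of 0.60 (limma adjusted p = 0.00237, beside 46.1% of all genes called). In the lower-numbered libraries it averaged 151 ± 9.86 FPKM in polyP and 125 ± 32.8 FPKM in control cultures (SD, n = 3 each), with overlap, and the log2 fold change was 0.31 (limma adjusted p = 0.219). With summed FPKM made equal in every library, the fit with replicate numbers gave 0.31 and the call was lost (limma adjusted p = 0.0574). The test of the difference between the classes called none of the 6 genes and 0 of all genes (limma adjusted p of Cnp 0.999, 537 genes with an unadjusted p under 0.05).

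For the genes not called, the fit with replicate numbers gives the size of change that the data allow. The interval for Mag ran from -0.83 to 0.16 around -0.33, that for Cldn11 from -0.42 to 0.28 around -0.07 and that for Mog from -0.05 to 0.20 around 0.07, on the log2 scale.

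**Figure D4:**
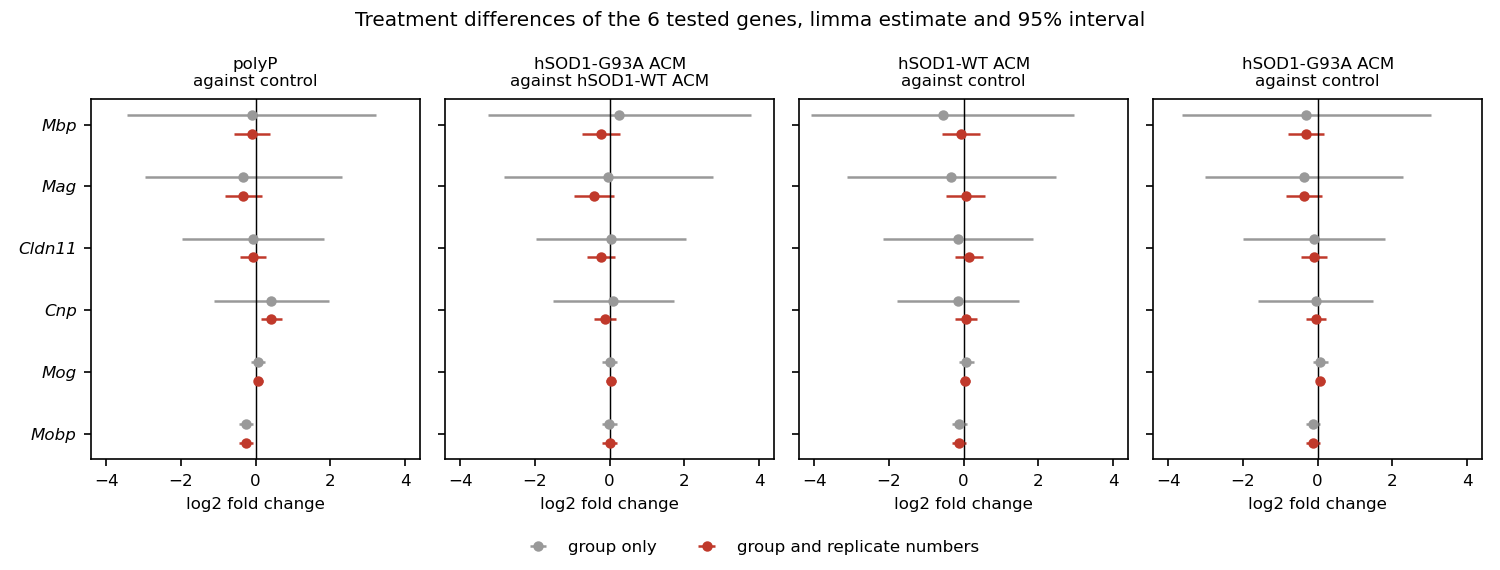
Log2 fold change of log2(FPKM + 1) with its 95% interval from limma for the 6 tested genes in 4 comparisons; grey has the group as the only term, red adds the class of replicate number. Grey intervals of Mbp, Mag, Cldn11 and Cnp span more than 3 log2 units, red ones are narrower, and in red only Cnp and Mobp under polyP lie wholly on 1 side of 0.

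Among the other lineage genes under polyP, the fits called genes in both directions. Of the 25 further myelin and oligodendrocyte genes 3 rose and 1 fell with the group as the only term, beside 23% of all genes tested called higher and 8.77% called lower. With replicate numbers as a term 3 rose and 4 fell, beside 32.7% of all genes called higher and 19.4% called lower. Plekhb1, a pleckstrin homology domain protein, averaged 12.1 ± 1.02 FPKM in polyP and 7.72 ± 1.01 FPKM in control libraries (log2 fold change 0.60, limma adjusted p = 0.000332). Ppp1r14a, an inhibitor of myosin phosphatase, averaged 9.04 ± 1.23 FPKM in polyP and 5.53 ± 1.07 FPKM in control libraries (0.63), and Qdpr, a dihydropteridine reductase, 54.6 ± 2.74 FPKM in polyP and 45.6 ± 5.52 FPKM in control libraries (0.26). Gpr37, a receptor on maturing oligodendrocytes, averaged 6.95 ± 0.50 FPKM in polyP and 9.40 ± 1.52 FPKM in control libraries (-0.38, limma adjusted p = 0.00459). Qdpr was no longer called when libraries were rescaled by the median of ratios or to equal sums, and the list median, 0.01 beside 0.04 over all genes tested, was then -0.04 and -0.09.

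Of the 9 transcription factors 1 rose and 0 fell with the group as the only term (23% and 8.77% of all genes), and 6 rose and 0 fell with replicate numbers as a term (32.7% and 19.4% of all genes). Olig1 averaged 137 ± 23.9 FPKM in polyP and 80.6 ± 22.2 FPKM in control libraries (log2 fold change 0.78, limma adjusted p = 0.0131). Olig2 averaged 34.2 ± 12.2 FPKM in polyP and 22.1 ± 10.6 FPKM in control libraries (log2 fold change 0.67) and passed with replicate numbers as a term (limma adjusted p = 6.58e-05 with and 0.231 without the term). Zfp24, Nkx2-2, Sox8 and Nkx6-2 were the other 4. Myrf and Sox10 passed in neither fit. The list median was 0.38, and 0.27 with equal sums, and Olig1 was called under each scaling.

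Of the 14 genes linked to the restraint of myelination 5 fell and 0 rose with the group as the only term. Beside this 8.77% of all genes were called lower and 31.8% in either direction. The same 5 fell and Sox6 rose with replicate numbers as a term, beside 52.1% of all genes called in either direction. Notch1, whose activation keeps precursors immature, averaged 26.4 ± 1.74 FPKM in polyP and 40.2 ± 9.57 FPKM in control libraries (log2 fold change -0.56, limma adjusted p = 0.00297), and its ligand Jag1 11.1 ± 0.824 FPKM in polyP and 14.0 ± 2.31 FPKM in control libraries (-0.30). Id2, an inhibitor of basic helix-loop-helix factors, averaged 50.3 ± 4.69 FPKM in polyP and 61.7 ± 3.78 FPKM in control libraries (-0.29). Lingo1, a receptor component that restrains differentiation, averaged 50.5 ± 2.48 FPKM in polyP and 59.2 ± 6.72 FPKM in control libraries (-0.22), and the ligand Bmp2 7.85 ± 1.25 FPKM in polyP and 9.78 ± 0.862 FPKM in control libraries (-0.29, limma adjusted p = 0.0485). The list median was -0.07, and the same 5 genes were called under each scaling. In the lower-numbered libraries alone 2 of them, Id2 and Notch1, passed.

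Of 11 genes of myelin lipid synthesis 1 fell and 0 rose, and with replicate numbers as a term 2 fell. The 1 gene was the fatty acid elongase Elovl1, at 25.8 ± 3.57 FPKM in polyP and 33.4 ± 3.73 FPKM in control libraries (log2 fold change -0.36, limma adjusted p = 0.00565). Beside these and the counts that follow, 23% of all genes tested were called higher and 8.77% lower with the group as the only term. With replicate numbers as a term the shares were 32.7% and 19.4%. Of 9 precursor genes, Pdgfra among them, limma called 0 with the group as the only term, and 0 had an unadjusted p under 0.05. With replicate numbers as a term Sox6, a factor of precursors, rose and Cspg4, the NG2 proteoglycan, fell. Of 10 Schwann cell genes 2 fell, Egr2, a factor of peripheral myelination that is also an immediate early gene, at 8.17 ± 1.68 FPKM in polyP and 22.0 ± 3.79 FPKM in control libraries (-1.33), and Prx, the periaxin of peripheral myelin, at 4.60 ± 0.516 FPKM in polyP and 5.92 ± 0.543 FPKM in control libraries (-0.31). The sums of the Schwann cell list overlapped, at 101 to 194 FPKM in polyP and 118 to 231 FPKM in control libraries, and so did those of microglia, at 126 to 349 FPKM in polyP and 122 to 1007 FPKM in control libraries, with 0 of the 17 microglial genes called in limma with the group as the only term and 0 at an unadjusted p under 0.05 (list median -0.71 on the log2 scale). Once replicate numbers were added as a term 1 of the 17 fell, Cd68, a lysosomal protein of phagocytes (limma adjusted p = 0.046), and 7 had an unadjusted p under 0.05. In the lower-numbered libraries alone the microglial sum ran from 162 to 349 FPKM in polyP and from 229 to 1007 FPKM in control libraries, with a list median of -1.15, 0 genes called in limma and 11 at an unadjusted p under 0.05. In the higher-numbered libraries it ran from 126 to 133 FPKM in polyP and from 122 to 128 FPKM in control libraries, with a list median of 0.04. There 1 of the 17 genes, C1qb, was called higher, beside 46.1% of all genes called in either direction. With the group as the only term, of 11 astrocyte genes 2 rose and 1 fell, and of 10 neuronal genes 1 rose and 0 fell. Of 9 fibroblast genes 1 rose and 2 fell, and of 4 endothelial genes 0 rose and 1 fell, beside 23% and 8.77% of all genes. Replicate numbers as a term added calls of 1 astrocyte gene higher, 1 Schwann cell gene lower and 1 endothelial gene lower. Their part in the changes of Mobp and Cnp was not tested.

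The second comparison set medium of astrocytes with mutant SOD1 against medium of astrocytes with wild-type SOD1. Of the 6 tested genes 0 were called in limma (adjusted p = 0.998 for each, 0 genes with an unadjusted p under 0.05), beside 0.471% of all genes tested, and 0 also with replicate numbers as a term (0.833% of all genes). With that term the log2 fold change was -0.42 for Mag (95% interval -0.95 to 0.10), -0.22 for Mbp (-0.74 to 0.29), -0.23 for Cldn11 (-0.60 to 0.15) and -0.12 for Cnp (-0.41 to 0.16). In the lower-numbered libraries Mbp stood at 169, 177 and 332 FPKM in hSOD1-G93A ACM cultures and at 292 and 335 FPKM in hSOD1-WT ACM cultures. The 2 lowest of these 5 values are both from hSOD1-G93A ACM cultures, and the third hSOD1-G93A ACM value lay between those of the hSOD1-WT ACM cultures. These 2 libraries lay below the gap of Mbp within the lower-numbered class, for which the fit has no term. In the higher-numbered libraries Mbp stood at 8.36 and 6.79 FPKM in hSOD1-G93A ACM cultures and at 7.04 and 6.54 FPKM in hSOD1-WT ACM cultures, with overlap.

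The media were also set against untreated cultures, which share the control libraries with each other and with the polyP comparison. For hSOD1-WT ACM against control 0 of 6 genes were called (limma adjusted p = 1.00 for each to 3 digits), beside 0.631% of all genes, and 0 with replicate numbers as a term, beside 1.2%. For hSOD1-G93A ACM against control 0 of 6 were called in either fit (limma adjusted p of at least 0.966 and 0.548), beside 0.0168% of all genes in each. None of the 6 genes had an unadjusted p under 0.05 in these fits of all libraries. Over every alternative run for the 3 comparisons of media, 8 of 468 values had one, with limma adjusted p from 0.202 to 0.622. Among them, Mbp in the higher-numbered libraries had a log2 fold change of -0.31 (95% interval -0.58 to -0.05) for hSOD1-WT ACM against control (limma unadjusted p = 0.0247, adjusted p = 0.622). Without control 1 and with replicate numbers as a term, hSOD1-G93A ACM against control gave -0.49 for Mbp and -0.55 for Mag (limma unadjusted p = 0.0309 and 0.0224, adjusted p = 0.212 and 0.202). The other 5 values were of Mag or Cldn11, all lower in hSOD1-G93A ACM, with that term and either a pseudocount of 0.1 or hSOD1-G93A ACM 3 left out. Within the lower-numbered class control 1 lay below the gap of Mbp and hSOD1-G93A ACM 3 above it. Leaving out either made that division more uneven between the groups compared, so division and treatment cannot be told apart in these fits. With replicate numbers as a term Mbp had a log2 fold change of -0.30 (-0.78 to 0.18) in hSOD1-G93A ACM and -0.08 (-0.59 to 0.43) in hSOD1-WT ACM, each against control, and Mobp -0.13 (-0.31 to 0.05) in hSOD1-G93A ACM and -0.13 (-0.32 to 0.07) in hSOD1-WT ACM. Of the 126 tested genes on the 11 lists limma called 0 with the group as the only term in each comparison of media, with 9 at an unadjusted p under 0.05 for hSOD1-G93A ACM against hSOD1-WT ACM, 6 for hSOD1-WT ACM against control and 5 for hSOD1-G93A ACM against control. Replicate numbers as a term gave 1 call, Gfap, an intermediate filament of astrocytes, lower in hSOD1-G93A ACM than in hSOD1-WT ACM libraries. It averaged 20.4 ± 3.95 FPKM in hSOD1-G93A ACM and 33.4 ± 10.4 FPKM in hSOD1-WT ACM libraries (SD, n = 5 and 4, limma adjusted p = 0.0446 with and 0.768 without the term). Control libraries averaged 22.4 ± 8.64 FPKM (SD, n = 5). Against control neither medium was called for Gfap (limma adjusted p with the term 0.812 for hSOD1-G93A ACM and 0.0696 for hSOD1-WT ACM). With the term, in the same order of comparisons 17, 9 and 9 had an unadjusted p under 0.05.

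Across libraries, summed FPKM ran from 446366 to 515541 and the number of genes at 1 FPKM or more from 11309 to 11723. Relative depth, recovered from 140 rarely detected genes, ran from 0.879 to 1.27 in lower-numbered and from 0.766 to 1.50 in higher-numbered libraries, which overlap. Absolute depth is unknown, so no counting interval is given.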

How the data were processed

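RNA was sequenced from 19 cultures as poly(A)-enriched TruSeq libraries, per the labels' protocols. The authors deposited FPKM per gene and library in 1 table, and reads were aligned with HISAT to rn6, per the submitters' processing notes. Not given in the sources used here are the aligner version, the quantifier, the annotation and any scaling. All 19 columns were matched to libraries by name, and no column was left unused. As FPKM hold no counts, count models were not used.

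Genes at 1 FPKM or more in at least 4 libraries (11887 of 15597) were tested on log2(FPKM + 1), a scale that understates the change of low genes, with limma 3.58.1 and statmod 1.5.0 in R 4.3.3, with trend and robust estimation, two-sided, and Benjamini-Hochberg adjustment over all genes tested. The libraries of all 4 groups were fitted together, with group as the sole term. The code was tested on simulated data. The alternatives were a pseudocount of 0.1, no filter, median-of-ratios or equal-sum scaling, the class of replicate number as a term, a replicate block, each class alone and each library left out.

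The 8 genes, the gene lists and the class of replicate number were chosen with earlier results of these data known. All 8 genes are named, with Myrf, Sox10, Olig1, Olig2 and Pdgfra. From each list at most 4 genes of highest mean and 4 called genes of smallest adjusted p are named, with the 5 genes nearest to the mean profile and the 3 nearest to Mbp. Other genes were chosen after their values were seen, and some listed genes are not reported here by name. Relative depth came from genes whose low FPKM are steps of whole fragments: 88.3% of 818 values lay within 0.1 fragment of a whole number, a share that describes the genes the depth was fitted to. RefSeq tables of GRCr8, another assembly than rn6, gave names, neighbours and promoter windows. Lhfpl3, Zfp488, Gjc3, Trf, Anln and Foxd3 of the lists were not analysed here.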

Additional observations from a re-analysis of the deposited data

Results flagged for a closer look

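In 1 of 32 pairs of gene and treatment group, 1 sample lay far from the others of its group. Mobp stood at 0.63 FPKM in hSOD1-WT ACM replicate 2, while the other 3 libraries of the group lay between 1.05 and 1.1 FPKM. The gap to the nearest library made up 0.894 of the range of the group, above what Dixon's test allows at 95% for 4 samples. Chance alone gives such a gap in about 1 of 20 groups.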

How the results depend on the processing

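PolyP against control gave 1 called gene of 6 with the group as the only term, 2 with replicate numbers as a term, 0 in lower-numbered libraries alone and 0 to 1 when libraries were left out in turn. With replicate numbers as a term it gave 1 with equal summed FPKM, an alternative chosen after seeing the data, and 1 to 2 with libraries left out. Same-numbered libraries of 27 pairs had correlations of -0.72 to 0.79 of their deviations, 22 above 0.1. In the 24 pairs of 1 class of replicate number they were 0.0681 to 0.79, 22 of them above 0.1. Unlike-numbered libraries of 1 class ran from -0.41 (control 1 with polyP 3) to 0.81 (control 4 with hSOD1-G93A ACM 5). Control 2 had 0.068 with polyP 2 and 0.078 with hSOD1-G93A ACM 2, but 0.68 with polyP 3 and 0.70 with hSOD1-G93A ACM 3. By contrast, control 3 had 0.51 with polyP 3, above 0.31 with polyP 1 and 0.28 with polyP 2. Equal numbers thus went with the higher correlation in some pairs and not in others, and pairing was not tested. The labels do not call same-numbered libraries pairs, and they were not taken as such. With the replicate block Mobp remained called under polyP (-0.26, limma adjusted p = 0.0353), still 1 gene. The other comparisons gave 0 called genes under every alternative run.

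Signs turned round in differences that were not called, and the cause was not tested. Under polyP, the log2 fold change was 0.0091 for Mbp and 0.037 for Cldn11 in higher-numbered libraries, and -0.036 for Mog with equal sums. For hSOD1-G93A ACM against hSOD1-WT ACM, replicate numbers as a term gave -0.22 for Mbp, -0.12 for Cnp and -0.23 for Cldn11. Lower-numbered libraries gave -0.54, -0.24 and -0.48, with -0.019 for Mog and 0.058 for Mobp, and higher-numbered ones -0.0081 for Cnp. In the replicate block hSOD1-WT ACM 3, a higher-numbered library, stood with lower-numbered libraries of the other groups. That block gave 0.51 for Mag and -0.030 for Mog, median-of-ratios scaling -0.0058 and equal sums -0.020 for Mog. For hSOD1-WT ACM against control, replicate numbers as a term gave 0.056 for Mag, 0.069 for Cnp and 0.13 for Cldn11. Lower-numbered libraries gave 0.17, 0.18 and 0.28, with 0.16 for Mbp, and higher-numbered ones -0.092 for Mog. For hSOD1-G93A ACM against control, higher-numbered libraries gave -0.035 for Mog and 0.066 for Cldn11.

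With libraries left out in turn, polyP against control ran from -0.87 to 0.63 for Mbp, -0.95 to 0.23 for Mag, -0.0018 to 0.14 for Mog and -0.53 to 0.36 for Cldn11. The comparison of media ran from -0.64 to 1.18 for Mbp, -0.75 to 0.70 for Mag, -0.023 to 0.036 for Mog, -0.096 to 0.026 for Mobp, -0.36 to 0.56 for Cnp and -0.49 to 0.64 for Cldn11. For hSOD1-WT ACM against control the ranges were -1.49 to 0.34 for Mbp, -1.07 to 0.38 for Mag, -0.0049 to 0.14 for Mog, -0.62 to 0.30 for Cnp and -0.73 to 0.40 for Cldn11. For hSOD1-G93A ACM against control they were -1.06 to 0.43 for Mbp, -0.98 to 0.19 for Mag, -0.44 to 0.29 for Cnp and -0.56 to 0.30 for Cldn11.

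Of the values of single genes under alternatives, 575 kept their direction and side of the threshold, 104 turned round, 11 lost a call and 2 gained one. Absolute depth is unknown, which limits statements on Mag in higher-numbered libraries and on Mobp, Opalin and Mal.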
